A study of Homo sapiens with 6 samples.

Results

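The stress ligands of natural killer (NK) receptors are human genes whose products are read by activating receptors of NK cells, and 6 of them were followed in Caco-2 cells carrying hairpins against FAM46A. The genes are ULBP1, ULBP2, ULBP3, MICA and MICB, which encode ligands of the receptor NKG2D, and NCR3LG1 (also called B7-H6), which encodes a ligand of the receptor NKp30. They were found by gene symbol among probe sets with 1 symbol, and all 6 were measured, with 12 probe sets in all, out of 14884 named genes on 16098 such probe sets. ULBP1 and NCR3LG1 were picked because their differences between hairpin and scramble arrays were already known to be large, so their values are given as a description without a test. The other 4 were added by family and not by value, and were tested. They came in as NKG2D ligands beside ULBP1, with earlier results of these data known, so counts over them are no independent test.

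Caco-2 cells derive from a human colon carcinoma, are an established line, and resemble small intestinal enterocytes once confluent. One group carried FAM46A-shRNA#2 and one FAM46A-shRNA#4, a pair of different hairpins against FAM46A, which encodes a non-canonical poly(A) polymerase, and the control group carried a scramble shRNA. Each group had 2 arrays, labelled as biological replicates of the same line, and every group was infected with lentivirus and collected 17 days later. Each deposited value is a log2 signal from which the probe set's own median across arrays had been taken, so 0 is that median and the absolute level of a gene cannot be read. In such bulk RNA, fewer cells of a type and less RNA per cell cannot be told apart. The level of FAM46A itself was not analysed here, so the groups follow their labels alone.

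NK cells kill stressed or transformed cells when signals from activating receptors outweigh those from inhibitory receptors, which mostly read HLA class I molecules. NKG2D binds a set of surface proteins related to HLA class I. MICA and MICB span the membrane, whereas several ULBP proteins are held by a glycosylphosphatidylinositol (GPI) anchor. These ligands are scarce on most healthy cells and rise with stress, and intestinal epithelium is a tissue where MICA and MICB are well known. NKp30 binds NCR3LG1, a member of the B7 family that is found mainly on tumour cells.

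The ULBP genes lie together on chromosome 6, MICA and MICB lie in the HLA region of the same chromosome, and NCR3LG1 lies on chromosome 11. In GRCh38.p14 the genes span chr6:149963943-149973715 (ULBP1), chr6:149942014-149949235 (ULBP2), chr6:150061053-150069121 (ULBP3), chr6:31400711-31415315 (MICA), chr6:31494918-31511124 (MICB) and chr11:17351800-17381661 (NCR3LG1). The RefSeq promoters (build GRCh38.p14, 250 bases before to 50 bases after the start) of all 6 are shown, so that those of ULBP1, ULBP3, MICA and MICB, which were higher in all hairpin arrays, can be set beside those of ULBP2 and NCR3LG1, which had other patterns. For MICA and MICB the start RefSeq's promoter table uses lies inside the gene span given above and is not its first base. In ULBP1 and ULBP2 (and ULBP3, which has none) the capitals mark TGACG on either strand, the core of the cAMP response element bound by the ATF and CREB factors. In MICA and MICB they mark GAANNTTC, a pair of heat shock element units, and in NCR3LG1 they mark the GC box GGGCGG on either strand.
ULBP1, chr6:149963693-149963992, plus strand: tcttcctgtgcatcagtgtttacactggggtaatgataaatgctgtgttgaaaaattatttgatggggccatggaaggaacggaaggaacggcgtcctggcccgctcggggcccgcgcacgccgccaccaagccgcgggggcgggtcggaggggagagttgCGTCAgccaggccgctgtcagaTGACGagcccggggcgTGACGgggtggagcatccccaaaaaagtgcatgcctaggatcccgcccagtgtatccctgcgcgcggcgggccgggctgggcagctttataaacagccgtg
ULBP2, chr6:149941764-149942063, plus strand: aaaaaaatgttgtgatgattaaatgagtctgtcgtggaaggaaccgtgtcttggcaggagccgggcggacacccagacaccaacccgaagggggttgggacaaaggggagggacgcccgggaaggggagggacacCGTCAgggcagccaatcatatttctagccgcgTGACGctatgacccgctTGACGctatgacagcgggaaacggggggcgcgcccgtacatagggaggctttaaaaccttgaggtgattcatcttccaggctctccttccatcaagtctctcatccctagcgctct
ULBP3, chr6:150069072-150069371, minus strand: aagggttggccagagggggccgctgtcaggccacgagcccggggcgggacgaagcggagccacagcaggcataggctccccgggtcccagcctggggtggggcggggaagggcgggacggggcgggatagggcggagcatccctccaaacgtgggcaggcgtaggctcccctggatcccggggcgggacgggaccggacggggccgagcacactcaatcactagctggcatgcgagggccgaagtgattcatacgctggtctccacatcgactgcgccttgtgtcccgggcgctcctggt
MICA, chr6:31403345-31403644, plus strand: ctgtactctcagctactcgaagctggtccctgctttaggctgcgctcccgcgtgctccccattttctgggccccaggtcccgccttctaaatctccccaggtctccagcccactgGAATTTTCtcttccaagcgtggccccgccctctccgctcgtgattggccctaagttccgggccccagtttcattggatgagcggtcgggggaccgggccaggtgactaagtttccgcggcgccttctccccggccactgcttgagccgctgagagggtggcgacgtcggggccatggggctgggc
MICB, chr6:31497895-31498194, plus strand: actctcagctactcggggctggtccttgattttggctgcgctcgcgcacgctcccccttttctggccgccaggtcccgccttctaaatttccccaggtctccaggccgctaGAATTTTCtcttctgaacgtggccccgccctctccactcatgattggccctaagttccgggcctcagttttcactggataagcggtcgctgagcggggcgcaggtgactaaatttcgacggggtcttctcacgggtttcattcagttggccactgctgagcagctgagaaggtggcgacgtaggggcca
NCR3LG1, chr11:17351550-17351849, plus strand: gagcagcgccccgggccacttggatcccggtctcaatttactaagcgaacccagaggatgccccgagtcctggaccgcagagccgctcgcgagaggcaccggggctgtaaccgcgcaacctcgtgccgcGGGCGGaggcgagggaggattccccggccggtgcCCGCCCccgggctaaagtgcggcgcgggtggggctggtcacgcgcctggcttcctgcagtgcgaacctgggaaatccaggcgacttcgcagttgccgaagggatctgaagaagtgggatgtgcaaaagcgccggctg

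The ULBP1 and ULBP2 promoters each held 3 TGACG matches, a number that 1.4% of 35116 promoters of the same length reached, while 24.6% held at least 1. The promoters of ULBP3, MICA, MICB and NCR3LG1 held no TGACG in this window. GAANNTTC occurred once in MICA and once in MICB, against 6.77% of all promoters with a match, and in none of the other 4. The GC box occurred in all 6, with 6 matches in ULBP3, 2 each in ULBP1 and NCR3LG1 and 1 each in ULBP2, MICA and MICB, against 45% of all promoters. The ATF4-type element TGATGNAA was found once, in ULBP2, against 3.62% of all promoters, and the full cAMP response element TGACGTCA and the E-box CACGTG were found in none of the 6 (1.85% and 7.26% of all). Every motif was searched on both strands, and TGACG is part of the full element. The MICA and MICB promoters aligned over 301 columns with 82.1% identity, those of ULBP1 and ULBP2 over 77 columns with 70.1% identity, and those of ULBP1 and ULBP3 over 43 columns with 83.7% identity. The letters alone say nothing about which factor was bound.

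ULBP1, a GPI-anchored NKG2D ligand, was higher with both hairpins than with scramble. Its log2 values were 0.06 and -0.06 in the shRNA#2 arrays and 0.25 and 0.62 in the shRNA#4 arrays, against -1.34 and -1.28 in the scramble arrays. All 4 hairpin arrays lay above both scramble arrays, and the lowest hairpin array stood 1.22 log2 units above the higher scramble array. The difference from scramble was 1.31 ± 0.12 with shRNA#2 (2.48-fold) and 1.74 ± 0.12 with shRNA#4 (3.34-fold). Errors after ± are standard errors of the fit with n = 2 arrays a group unless marked SD. By size ULBP1 was number 9 among the rises of all 14884 genes for the mean of both hairpins, number 27 for shRNA#2 and number 12 for shRNA#4. The order of the groups was shRNA#4, shRNA#2, scramble. The hairpin groups did not overlap, but the gap of 0.19 between them was smaller than the distance of 0.37 between the shRNA#4 arrays. Where the 3 groups of a gene do not overlap, the median of the 6 arrays falls between the arrays of the middle group. These therefore lie at equal distances from 0. ULBP1, MICB and NCR3LG1 are such genes, and the share of all genes with separate groups was not counted.

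**Figure D1:**
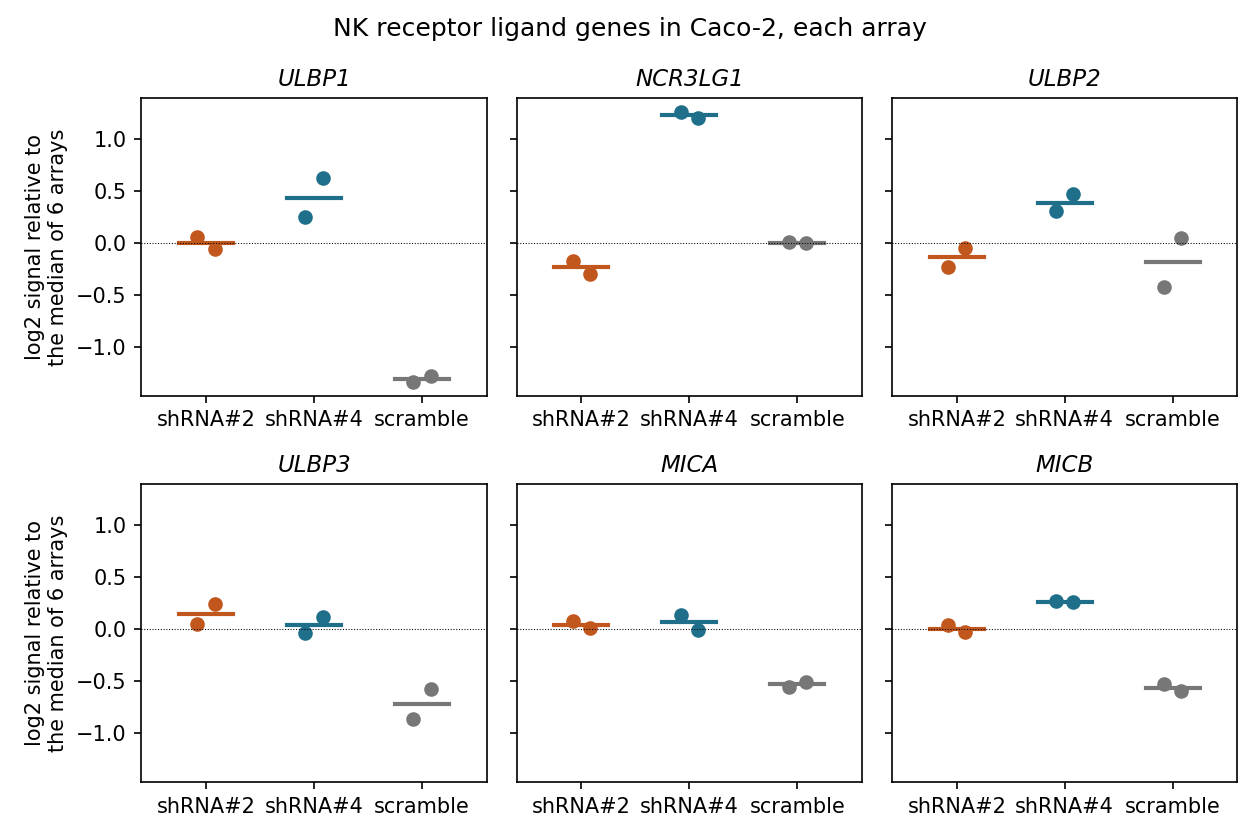
Log2 signal relative to the median of the 6 arrays (y axis, same scale in every panel) for the 6 ligand genes in the shRNA#2, shRNA#4 and scramble groups. Points are arrays (2 a group) and bars are group means. ULBP1, ULBP3, MICA and MICB have all hairpin arrays above both scramble arrays, NCR3LG1 stands high in the shRNA#4 arrays at 1.26 and 1.20, and the scramble arrays of ULBP2 spread over 0.47.

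ULBP3, MICA and MICB, 3 of the 4 family members that were not chosen by value, rose with each hairpin. ULBP3, another GPI-anchored NKG2D ligand, had log2 values of 0.04 and 0.24 with shRNA#2 and -0.04 and 0.12 with shRNA#4, against -0.87 and -0.58 with scramble. It was higher than in scramble by 0.87 ± 0.12 with shRNA#2 (1.82-fold, limma adjusted p = 0.00471) and by 0.76 ± 0.12 with shRNA#4 (1.69-fold, limma adjusted p = 0.00574). The hairpin groups overlapped, and their difference of 0.11 did not pass the test (95% interval -0.18 to 0.40, limma adjusted p = 0.675).

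MICA, a transmembrane NKG2D ligand, had values of 0.07 and 0.01 with shRNA#2 and 0.14 and -0.01 with shRNA#4, against -0.56 and -0.51 with scramble. Its rise was 0.58 ± 0.066 with shRNA#2 (1.49-fold, limma adjusted p = 0.00275) and 0.60 ± 0.066 with shRNA#4 (1.51-fold, limma adjusted p = 0.0017). The hairpin arrays overlapped each other and stayed clear of scramble. All hairpin arrays lay above both scramble arrays in 3 of the 4 family members (ULBP3, MICA and MICB), against 19.5% of all genes, and all lay below in 16.7% of genes. For MICA the difference between hairpins was -0.02 (95% interval -0.18 to 0.14, limma adjusted p = 0.9).

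MICB, the close paralog of MICA, was read by 7 probe sets that share 1 transcript accession and are not independent of each other. Their mean was 0.03 and -0.03 with shRNA#2 and 0.26 in each shRNA#4 array, against -0.53 and -0.60 with scramble. MICB rose by 0.57 ± 0.053 with shRNA#2 (1.48-fold, limma adjusted p = 0.00157) and by 0.83 ± 0.053 with shRNA#4 (1.77-fold, limma adjusted p = 0.000407). Every probe set showed the same order of groups, with differences from scramble between 0.48 and 0.74 for shRNA#2 and between 0.74 and 1.01 for shRNA#4. MICB was lower with shRNA#2 than with shRNA#4 by a difference of -0.26 ± 0.053 (limma adjusted p = 0.0242), a call that ended without any 1 of the 4 hairpin arrays (limma adjusted p = 0.0806 to 0.124) and held without either scramble array. How far the probe sets of MICA and MICB read each other's transcripts was not analysed here.

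**Figure D2:**
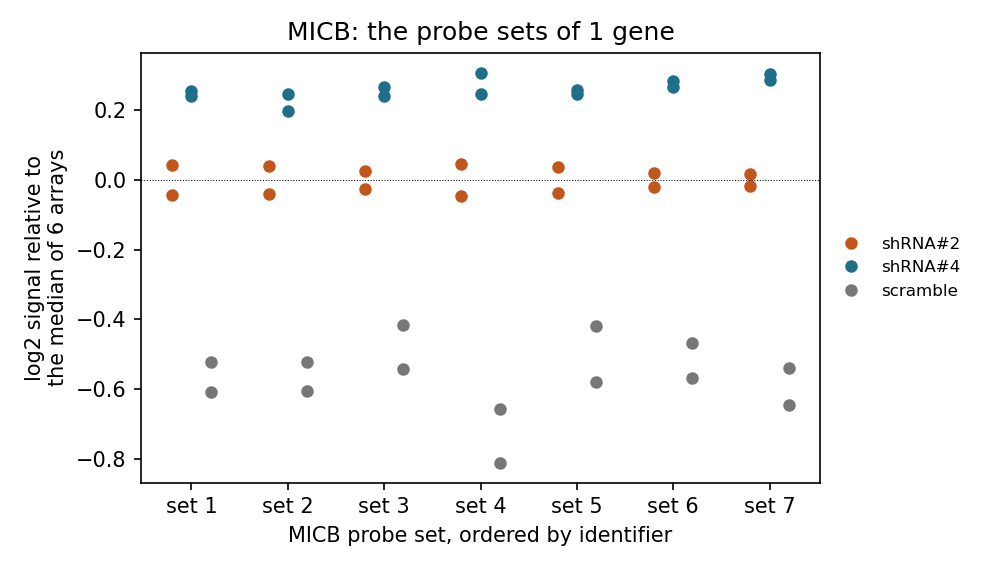
Log2 signal relative to the median of the 6 arrays (y axis) in each of the 7 MICB probe sets (x axis), with 2 points a group for shRNA#2, shRNA#4 and scramble. In every probe set the shRNA#4 arrays are highest and the scramble arrays lowest, and the scramble arrays of the fourth set lie lowest of all.

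ULBP2, another GPI-anchored NKG2D ligand encoded close to ULBP1, passed against scramble with shRNA#4 and not with shRNA#2. Its values were -0.23 and -0.05 with shRNA#2 and 0.30 and 0.46 with shRNA#4, against -0.43 and 0.05 with scramble. The scramble arrays lay 0.47 apart, the shRNA#2 arrays fell between them, and both shRNA#4 arrays lay above every other array. Against scramble the difference was 0.05 ± 0.16 with shRNA#2 (95% interval -0.34 to 0.44, limma adjusted p = 0.891) and 0.57 ± 0.16 with shRNA#4 (1.49-fold, limma adjusted p = 0.0437). The shRNA#4 call held in 1 of 6 fits that left out an array, that without replicate 2 of scramble (limma adjusted p = 0.00882), and otherwise ended with an adjusted p of up to 0.183 from limma. The difference between hairpins was -0.52 (95% interval -0.91 to -0.14, limma adjusted p = 0.0838) and passed the test without either scramble array (limma adjusted p = 0.0239). Replicate 2 was higher than replicate 1 of ULBP2 in each group, and with the replicate number as a block the difference between hairpins and the mean of both hairpins (0.31) passed, with limma adjusted p of 0.0158 and 0.032.

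The NKG2D ligand family had further members with a probe set. RAET1E and RAET1L, which encode ligands of the same family, differed from scramble for the mean of both hairpins by -0.13 (95% interval -0.30 to 0.05) and 0.02 (95% interval -0.09 to 0.12), with limma adjusted p of 0.277 and 0.842. RAET1L is a close paralog of ULBP2, and its values lay between -0.01 and 0.06 on the 6 arrays. Since levels were removed, a gene that is not expressed could not be told from one that is steady. Of the 6 measured NKG2D ligand genes other than ULBP1, 3 rose and 0 fell with shRNA#2, 4 rose and 0 fell with shRNA#4, and 3 rose and 0 fell when both were averaged. Over all genes, 12.1% rose and 9.54% fell with shRNA#2, 15.7% rose and 10.4% fell with shRNA#4, and 14.8% rose when both hairpins were averaged. Between hairpins, 6.64% of all genes were higher and 8.63% lower with shRNA#2, and MICB was the 1 of these 6 genes that passed, lower with shRNA#2. The median change of these 6 genes for the mean was 0.45, against 0.003 over all genes. The list of NKG2D ligands was chosen with earlier results of these data known, so its counts are no test.

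NCR3LG1, the NKp30 ligand, had a different pattern over the arrays. Its values were -0.17 and -0.30 with shRNA#2 and 1.26 and 1.20 with shRNA#4, against 0.0024 and -0.0024 with scramble. The shRNA#4 arrays lay 1.20 above the higher scramble array, and the shRNA#2 arrays lay 0.17 below the lower one. The difference from scramble was -0.24 ± 0.059 with shRNA#2 (0.85-fold) and 1.23 ± 0.059 with shRNA#4 (2.35-fold). By size NCR3LG1 was number 51 among the rises of all genes with shRNA#4, and its difference between hairpins, -1.47 ± 0.059, was number 11 from the lowest of all 14884 genes. The mean of both hairpins, 0.50 ± 0.051, therefore stands for neither of them.

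Of 4 measured ligands of the natural cytotoxicity receptors other than NCR3LG1, 2 rose and 0 fell for the mean of both hairpins, against 14.8% and 10.6% of all genes. These were NID1, a basement membrane protein and reported ligand of NKp44 (0.42 ± 0.089, limma adjusted p = 0.0171), and PCNA, the sliding clamp of DNA replication, which at the cell surface is a reported inhibitory ligand of NKp44 (0.39 ± 0.085, limma adjusted p = 0.0182). Both calls ended without either 1 of the scramble arrays, with limma adjusted p of up to 0.0925 for NID1 and 0.108 for PCNA, and that of NID1 also without replicate 1 of shRNA#2. With shRNA#4 alone NID1 and PCNA did not pass (0.31 each, limma adjusted p = 0.0751 and 0.0642). With shRNA#2 both passed (0.53 and 0.47, limma adjusted p = 0.0154 and 0.0192). PDGFD (0.05 ± 0.046) and CFP (-0.11 ± 0.051), further reported ligands, did not pass for the mean of both hairpins.

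Of 6 nectins and related adhesion proteins, 2 rose and 0 fell for the mean of both hairpins, again against 14.8% and 10.6% of all genes. CADM1, which binds the receptor CRTAM on activated NK and T cells, had values of 0.26 and -0.06 with shRNA#2 and 0.39 and 0.09 with shRNA#4, against -0.47 and -0.60 with scramble. It rose by 0.71 ± 0.12 (limma adjusted p = 0.00735), with an adjusted p of 0.05 from limma without replicate 2 of scramble. NECTIN1, an adhesion molecule, rose by 0.25 ± 0.064 (limma adjusted p = 0.034), a call that held in 1 of 6 fits without an array. It passed with neither shRNA#2 nor shRNA#4 alone (0.26 and 0.24, limma adjusted p = 0.0521 and 0.0647). PVR and NECTIN2, the ligands of the activating receptor DNAM-1, differed by -0.25 (95% interval -0.45 to -0.05, limma adjusted p = 0.0775) and -0.06 (95% interval -0.17 to 0.06, limma adjusted p = 0.494). NECTIN3 (0.08 ± 0.057) and NECTIN4 (-0.07 ± 0.056) did not pass either.

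Of 8 other activating or adhesion ligands, 0 passed limma's adjusted test for the mean of both hairpins, where 25.4% of all genes passed. Of these 8, 2 had an unadjusted p under 0.05. ICAM1, the adhesion partner of LFA-1, separated the hairpins, with -0.52 and -0.48 for shRNA#2 and 0.09 and 0.26 for shRNA#4, against -0.02 and 0.02 for scramble. It fell by 0.50 ± 0.069 with shRNA#2 (limma adjusted p = 0.00483), and with shRNA#4 its difference was 0.18 ± 0.069 (limma adjusted p = 0.122). The difference between hairpins was -0.68 ± 0.069 (limma adjusted p = 0.00345). CD58, the partner of CD2, differed by -0.23 ± 0.070 for the mean of both hairpins, and CD48, CD70, ICAM2, ICAM3, SLAMF6 and SLAMF7 lay between -0.26 and 0.10. Over the 4 ligand lists, 7 of 24 genes other than ULBP1 and NCR3LG1 rose and 0 fell for the mean of both hairpins, with a median of 0.02, against 14.8% and 10.6% of all genes and a median of 0.003. With the replicate number as a block, PVR and CD58 were called lower (limma adjusted p = 0.0157 and 0.0131).

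**Figure D3:**
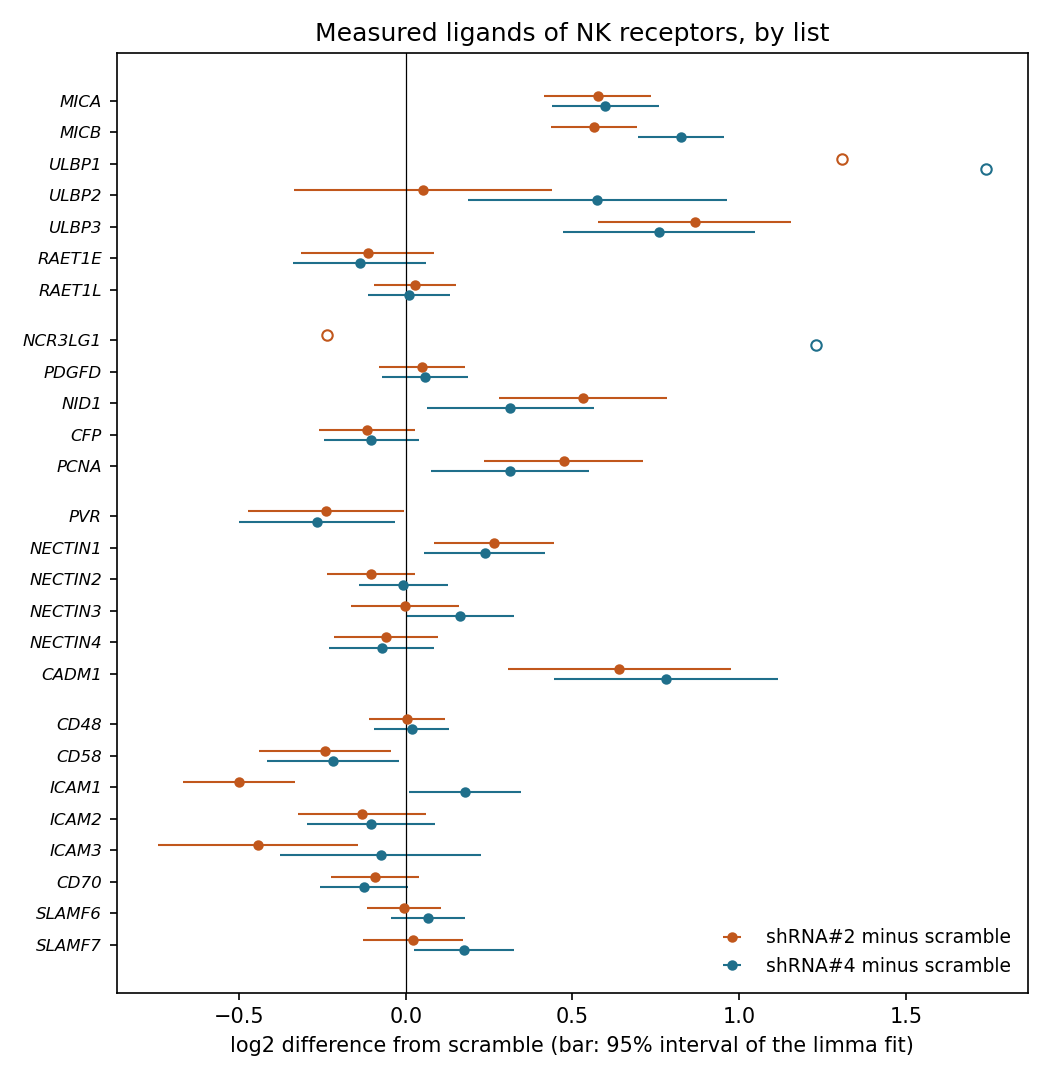
Log2 difference from scramble (x axis) for the measured ligand genes (y axis), in the 4 lists from top to bottom, with shRNA#2 minus scramble above shRNA#4 minus scramble in each row. Filled points carry 95% intervals of the limma fit for 1 gene at a time, and the open points of ULBP1 and NCR3LG1, chosen by value, carry none. MICA, MICB, ULBP3, CADM1, NID1, PCNA and NECTIN1 have the intervals of both hairpins to the right of 0. PVR and CD58 have those of both hairpins to the left of 0. NCR3LG1 and ICAM1 are among the genes with the hairpins on opposite sides.

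Genes of antigen presentation and inhibitory ligands, which restrain NK cells, fell more often than they rose, in a list chosen with earlier results known. Of 25 listed, 8 were analysed here, and 5 of these fell and 0 rose for the mean of both hairpins, against 10.6% of all genes that fell and 14.8% that rose. ERAP1, which trims peptides for HLA class I, fell by 0.51 ± 0.065 (limma adjusted p = 0.00284), and CEACAM1, an inhibitory adhesion receptor, by 0.40 ± 0.074 (limma adjusted p = 0.0103). TAPBP, the peptide-loading factor tapasin, fell by 0.37 ± 0.045 (limma adjusted p = 0.00248) and its relative TAPBPL by 0.34 ± 0.042 (limma adjusted p = 0.00258). B2M, the light chain of class I and named after its values were seen, fell by 0.24 ± 0.056 (limma adjusted p = 0.0235). With shRNA#2 alone ERAP1 and CEACAM1 did not pass (-0.24 and -0.28, limma adjusted p = 0.0701 and 0.069). With shRNA#4 alone B2M did not pass (-0.20, limma adjusted p = 0.0782). The calls of ERAP1, TAPBP and TAPBPL held without any 1 array, that of CEACAM1 ended without replicate 1 of scramble (limma adjusted p = 0.0682) and that of B2M held in 2 of 6 such fits (limma adjusted p up to 0.113). With all hairpin arrays as 1 group, TAPBPL alone of these 5 was called, and ERAP1, TAPBP, CEACAM1 and B2M were not (limma adjusted p = 0.177, 0.0973, 0.0814 and 0.0654).

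Between hairpins 3 of these 8 genes passed, 2 higher and 1 lower with shRNA#2, against 15.3% of all genes. ERAP1 stood at 0.08 and -0.08 with shRNA#2 and -0.47 and -0.59 with shRNA#4, against 0.21 and 0.27 with scramble, and the difference of 0.53 ± 0.075 between hairpins passed the test (limma adjusted p = 0.00837), also without any 1 array. TAPBP differed between hairpins in the opposite direction, by -0.29 ± 0.052 (limma adjusted p = 0.0165), a call that ended without any 1 of the 4 hairpin arrays (limma adjusted p up to 0.0926). The genes of HLA class I heavy chains were not analysed here.

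Among 12 measured B7 and butyrophilin genes other than NCR3LG1, 3 fell and 0 rose for the mean of both hairpins. Over all genes 10.6% fell and 14.8% rose. This list too was chosen with earlier results of these data known. HHLA2, a B7 family protein that binds the inhibitory NK receptor KIR3DL3, had values of -0.03 and 0.03 with shRNA#2 and -0.42 and -0.29 with shRNA#4, against 1.28 and 1.21 with scramble. It fell by 1.25 ± 0.066 with shRNA#2 (limma adjusted p = 0.000404) and by 1.60 ± 0.066 with shRNA#4 (limma adjusted p = 0.000229). Its hairpin groups did not overlap and differed by 0.35 ± 0.066 (limma adjusted p = 0.019), a call that ended without replicate 1 or 2 of shRNA#2 or replicate 1 of shRNA#4 (limma adjusted p up to 0.1). BTNL8, a butyrophilin-like protein of gut epithelium that engages gamma-delta T cells, fell by 0.83 ± 0.069 (limma adjusted p = 0.000757) and VSIR, the checkpoint protein VISTA, by 0.41 ± 0.063 (limma adjusted p = 0.0055) for the mean of both hairpins.

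Ligands can be cut from the surface by metalloproteases. Of 10 measured genes of shedding and its control, 1 rose and 4 fell for the mean of both hairpins, against 14.8% and 10.6% of all genes. ADAM17, a protease that releases several NKG2D ligands, rose by 0.48 ± 0.059 (limma adjusted p = 0.00246), with 0.10 and -0.05 for shRNA#2 and 0.14 and 0.05 for shRNA#4, against -0.41 and -0.42 for scramble. TIMP3, an inhibitor of ADAM17, fell by 0.54 ± 0.097 (limma adjusted p = 0.0097). MMP14, a membrane protease, fell by 0.35 ± 0.10 (limma adjusted p = 0.0486), a call that held in 1 of 6 fits without an array. With shRNA#4 alone TIMP3 and MMP14 did not pass (-0.38 and -0.23, limma adjusted p = 0.0515 and 0.23). With shRNA#2 both passed (-0.69 and -0.48, limma adjusted p = 0.0082 and 0.033).

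ADAM9, a further membrane protease, stood at 0.29 and 0.32 with shRNA#2 and -1.09 and -1.38 with shRNA#4, against -0.01 and 0.01 with scramble. Like NCR3LG1 it had shRNA#2 and shRNA#4 on opposite sides of scramble, but with the signs turned. It fell by 1.24 ± 0.096 with shRNA#4 (limma adjusted p = 0.000623), its difference with shRNA#2 was 0.30 ± 0.096 (limma adjusted p = 0.0759), and the hairpins differed by 1.54 ± 0.096 (limma adjusted p = 0.00154). ADAM10, a protease that also cuts NKG2D ligands, fell by 0.35 ± 0.048 with shRNA#4 (limma adjusted p = 0.00363) and differed by 0.01 ± 0.048 with shRNA#2 (limma adjusted p = 0.955). Its difference between hairpins was 0.36 ± 0.048 (limma adjusted p = 0.0071, and 0.0547 without replicate 1 of shRNA#2). For the mean of both hairpins ADAM9 fell by 0.47 ± 0.083 (limma adjusted p = 0.00922) and ADAM10, named after its values were seen, by 0.17 ± 0.042 (limma adjusted p = 0.0276). The first call ended without either scramble array (limma adjusted p up to 0.0526) and the other in every fit without an array (limma adjusted p up to 0.15).

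Of the GPI anchor genes, on which the ULBP proteins with such an anchor depend, 6 of 29 were analysed here. PGAP1, which remodels the anchor in the endoplasmic reticulum, rose by 0.73 ± 0.10 (limma adjusted p = 0.00388), and PGAP3, which acts on it in the Golgi, fell by 0.78 ± 0.10 (limma adjusted p = 0.00308) for the mean of both hairpins. Neither call was lost without any 1 array. With shRNA#4 alone, the calls of PGAP1 and PGAP3 ended without replicate 1 of scramble, and that of PGAP1 also without replicate 2 (limma adjusted p up to 0.0756).

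Regulators that are reported to act on these ligands rose more often than they fell. Of 20 measured, 11 rose and 0 fell for the mean of both hairpins, with a median of 0.22. Over all genes 14.8% rose and 10.6% fell. In this list 8 rose and 0 fell with shRNA#2, against 12.1% and 9.54% of all genes. With shRNA#4, 10 rose and 1 fell, against 15.7% and 10.4%. The list was not split by direction of action, and HDAC1 (0.34) and HDAC2 (0.26) were among the 11. CHEK2 passed with neither hairpin alone, and E2F1 and DDIT3 passed with shRNA#4 and not with shRNA#2. For the mean, the calls of CHEK2, E2F1, HDAC2 and DDIT3 did not hold in every fit without an array. The list was chosen with earlier results of these data known, so its counts are no test. MYC, a transcription factor linked to NCR3LG1 and NKG2D ligand expression in tumour cells, had values of -0.05 and 0.18 with shRNA#2 and 0.05 and 0.11 with shRNA#4, against -0.65 and -0.82 with scramble, a rise of 0.81 ± 0.081 (limma adjusted p = 0.00133). EIF2AK3 (PERK), the kinase of the unfolded protein response, rose by 0.60 ± 0.043 (limma adjusted p = 0.000499), the checkpoint kinase CHEK1 by 0.55 ± 0.064 (limma adjusted p = 0.00206) and EIF2AK2 (PKR), which senses double-stranded RNA, by 0.48 ± 0.060 (limma adjusted p = 0.00257). These 4 calls held without any 1 array.

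ATF4, a transcription factor reported to drive ULBP1, and HSF1, the heat shock factor reported to act on MICA and MICB, were named after their values were seen. ATF4 had -0.04 and 0.04 with shRNA#2 and 0.15 and 0.20 with shRNA#4, against -0.25 and -0.22 with scramble, and rose by 0.32 ± 0.047 for the mean (limma adjusted p = 0.00441). HSF1 rose by 0.43 ± 0.070 (limma adjusted p = 0.0066). With shRNA#4 alone ATF4 and HSF1 rose by 0.41 and 0.51 (limma adjusted p = 0.00319 and 0.00616). With shRNA#2 alone they rose by 0.23 and 0.35 (limma adjusted p = 0.028 and 0.0275). These shRNA#2 calls did not hold in every fit without an array. Both calls for the mean held without any 1 array. DDIT3, a stress-induced transcription factor downstream of ATF4, differed by -0.38 ± 0.066 for shRNA#2 minus shRNA#4 (limma adjusted p = 0.0153). That call ended without replicate 1 of shRNA#2 or either shRNA#4 array. Against scramble DDIT3 rose by 0.47 with shRNA#4 (limma adjusted p = 0.00407) and differed by 0.09 with shRNA#2 (limma adjusted p = 0.444). ERN1 (IRE1), a sensor of unfolded proteins, was higher with shRNA#2 than with shRNA#4 by 0.44 ± 0.062 (limma adjusted p = 0.00796). Against scramble ERN1 fell by 0.34 with shRNA#4 (limma adjusted p = 0.0102) and differed by 0.11 with shRNA#2 (limma adjusted p = 0.313). Of 3 measured genes of the death receptor pathway, 0 passed limma's adjusted test for the mean of both hairpins, where 25.4% of all genes passed. Of these 3, 1 had an unadjusted p under 0.05, and their changes lay between -0.18 and 0.11.

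Over the 10 lists, which were chosen with earlier results of these data known, 83 genes other than ULBP1 and NCR3LG1 were counted. For the mean of both hairpins 33 of them (39.8%) passed, 20 higher and 13 lower, against 25.4% of all genes. For shRNA#2 28 passed (33.7%, against 21.6% of all genes) and for shRNA#4 29 passed (34.9%, against 26.1%). Between hairpins 12 passed (14.5%), close to the 15.3% of all genes. Of the calls, 20 of 33 for the mean of both hairpins were also made in each of the 6 fits that left out an array, 15 of 28 for shRNA#2, 20 of 29 for shRNA#4 and 4 of 12 between hairpins. When all 4 hairpin arrays were pooled into 1 group, 19 of the 33 calls for the mean were kept and 14 were lost, which beside ERAP1, TAPBP, CEACAM1 and B2M were TIMP3, MMP14, ADAM9, ADAM10, NID1, PCNA, NECTIN1, DDIT3, E2F1 and CHEK2 (limma adjusted p from 0.055 for CHEK2 to 0.701 for ADAM9).

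**Figure D4:**
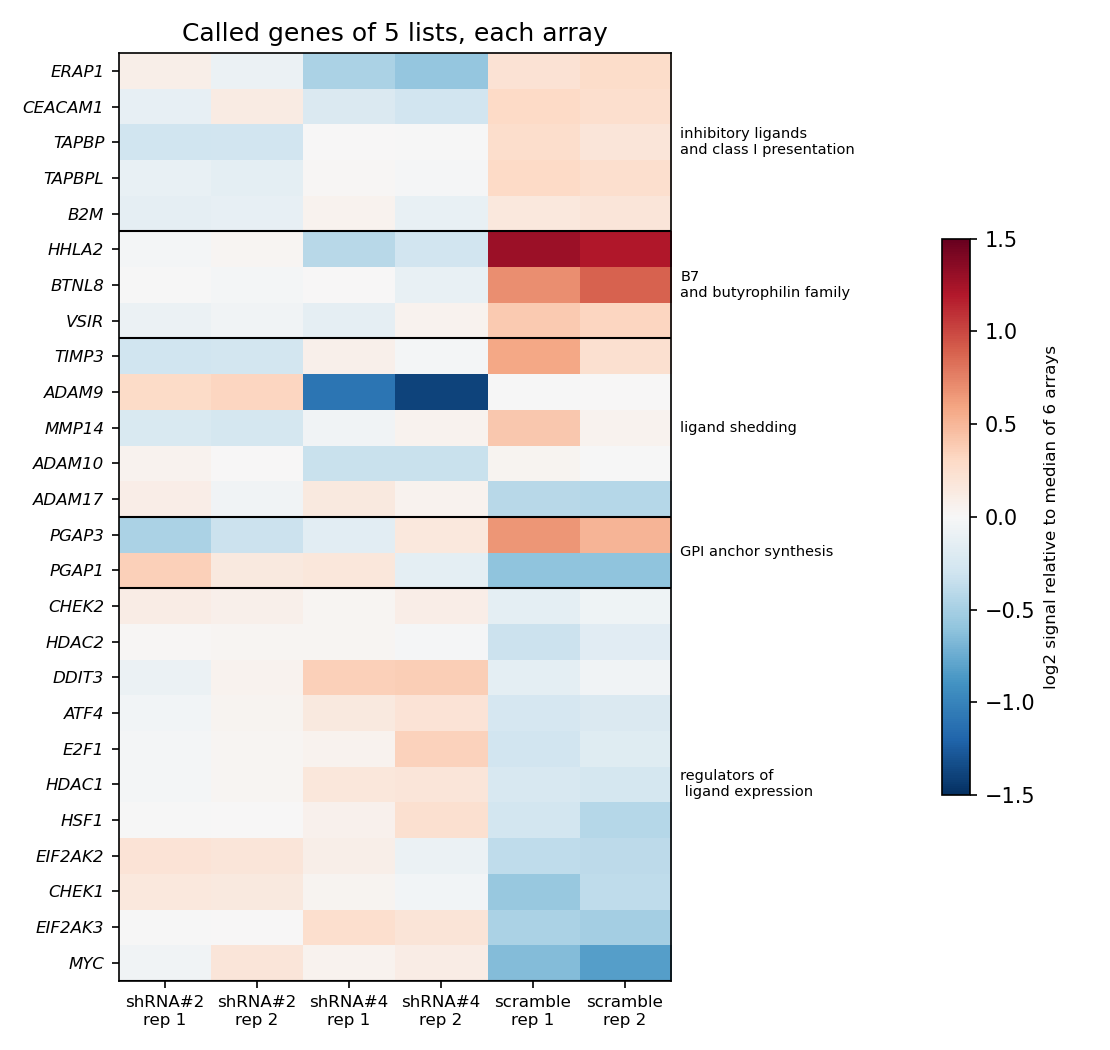
Colour gives the log2 signal relative to the median of the 6 arrays for the 26 genes of 5 lists that passed for the mean of both hairpins, in each shRNA#2, shRNA#4 and scramble array (x axis). HHLA2 and BTNL8 are brightest in scramble, MYC is lowest there, and ADAM9 is low in the shRNA#4 arrays alone.

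Of the 3 nearest measured protein-coding genes on each side of ULBP1 (LRP11, RAET1E, ULBP2, RAET1L, ULBP3 and IYD), ULBP3 alone passed for the mean of both hairpins, where 25.4% of all genes passed. LRP11 and IYD, at the ends of this stretch, differed by -0.04 and 0.13 (limma adjusted p = 0.784 and 0.284). Of the 6 neighbours of NCR3LG1 (SOX6, C11orf58, NUCB2, MYOD1, SERGEF and TPH1), 0 passed limma's adjusted test with shRNA#4, where 26.1% of all genes passed, and 2 had an unadjusted p under 0.05. C11orf58 had the largest rise of these 6, 0.19 (limma adjusted p = 0.0756).

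Closest to ULBP1 in Euclidean distance over the 6 arrays among protein-coding genes was RPIA, a pentose phosphate isomerase (distance 0.39, Pearson r = 0.99), with values of -0.01 and 0.01 in shRNA#2 and 0.47 and 0.58 in shRNA#4, against -1.16 and -1.02 in scramble. It was followed by the semaphorin co-receptor NRP1 (0.41), the deubiquitinase UCHL1 (0.42), the peroxidase GPX8 (0.43) and the carboxypeptidase CPA6 (0.47), with r from 0.97 to 0.98. Closest to NCR3LG1 was TAGLN, an actin-binding protein (distance 0.26, r = 0.99), with -0.30 and -0.16 in shRNA#2 and 1.11 and 1.12 in shRNA#4, against -0.04 and 0.04 in scramble. PEA15 (0.42), the kinase POMK (0.43), IGFL2 (0.51) and the stress-induced transcription factor ATF3 (0.52) followed, with r from 0.96 to 0.99. These r are over 6 arrays that share 3 groups and describe the shape only. None of the 6 NK ligand genes was among the 5 nearest of ULBP1 or NCR3LG1.

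**Figure D5:**
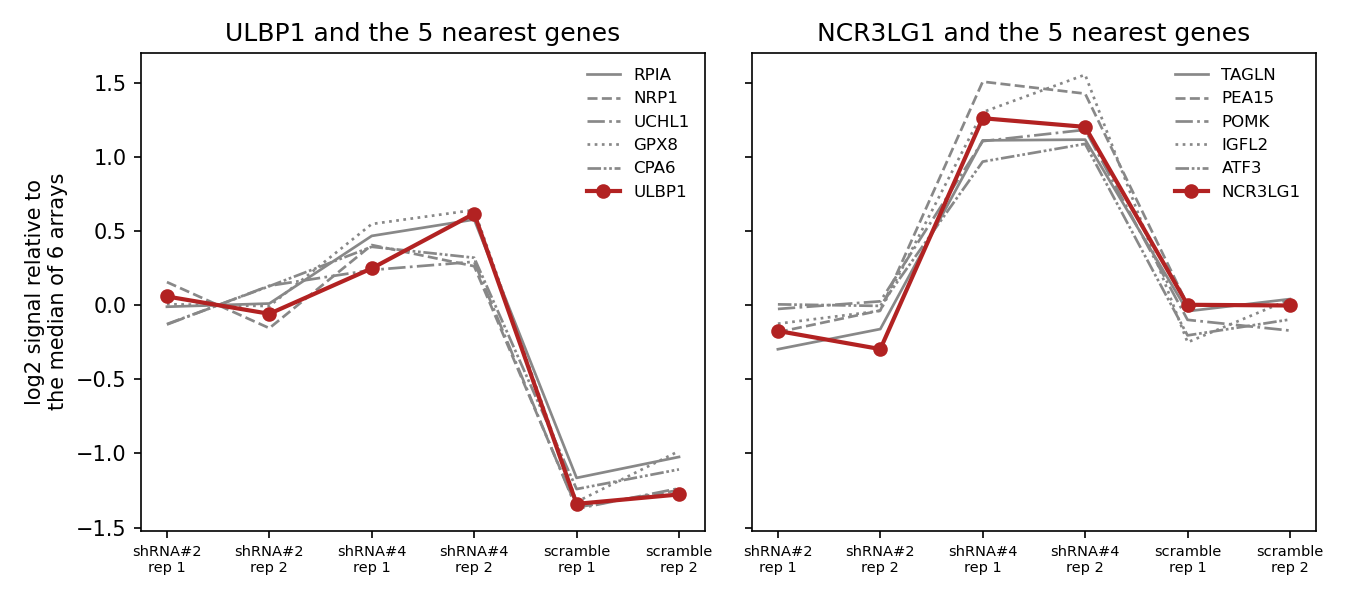
Log2 signal relative to the median of the 6 arrays (y axis) in each array (x axis) for ULBP1 (left) and NCR3LG1 (right) in red, with the 5 protein-coding genes at the smallest Euclidean distance in grey. ULBP1 and its nearest genes are low in both scramble arrays, while NCR3LG1 and its nearest genes are high in the shRNA#4 arrays alone.

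Markers of other cell types were set beside these values. Over all genes 25.4% passed limma's adjusted test for the mean of both hairpins. Of 6 measured NK and T cell markers 0 passed it, also at an unadjusted p under 0.05, with array medians between -0.039 and 0.024. The same held for 3 endothelial markers. Of 6 myeloid markers 3 passed, all of them lower, against 10.6% of all genes that fell. CD68 fell by 2.01, LAPTM5 by 0.77 and CSF1R by 0.31. The scramble arrays of LAPTM5 lay apart, at 0.43 and 0.89. CD14 went the other way, with all hairpin arrays above scramble and a difference of 0.34 (limma adjusted p = 0.0519). Of 2 fibroblast markers THY1 fell by 0.20. Of 8 markers of intestinal epithelium 5 fell, against 10.6% of all genes that fell. Among them PHGR1 fell by 1.76, KRT20, a keratin of mature enterocytes, by 1.19 and the epithelial adhesion molecule EPCAM by 0.15. The scramble arrays of KRT20 lay far apart, at 1.56 and 0.75. The keratins KRT18 and KRT8 of the same list differed by 0.30 (limma adjusted p = 0.0962) and 0.13 (limma adjusted p = 0.434), and KRT18 rose by 0.49 with shRNA#4 (limma adjusted p = 0.0315). Array medians of this list were -0.03 and -0.02 with shRNA#2 and -0.03 and -0.04 with shRNA#4, against 0.11 and 0.18 with scramble. The part of this change in the ligand values was not tested. Whether a marker was absent could not be read from centred values.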

How the data were processed

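Total RNA of Caco-2 was measured on 6 single-channel Affymetrix arrays. Per the labels' protocols, biotin-labelled sense-strand DNA was made from 100 ng of RNA with the WT PLUS kit. The log2 values deposited by the authors were already set relative to the median of each probe set, which was read from the values themselves (48144 probe sets, medians within 5e-07 of 0, range -2.65 to 3.53, 0 missing). The sources used here do not give the logarithm's base (log2 was assumed), the summarisation, the background correction or the normalization. Signal over background was not analysed here, so the number of arrays limits the precision and dim probe sets were kept.

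Probe sets were named by the Entrez ID of the platform table. Of them 16098 had 1 symbol, 0 several and 32046 none, and 0 symbols were updated. The 779 genes with more than 1 probe set were averaged, giving 14884 genes, 11915 of them protein-coding. One limma 3.58.1 fit (R 4.3.3) held all 6 arrays and 3 groups, with moderated variances (residual degrees of freedom 3, prior 3.09). P-values were adjusted by Benjamini-Hochberg across the 14884 genes, and calls are those with adjusted p under 0.05. The 95% intervals are for 1 gene at a time. The labels call the replicates biological without saying what separates them, so the p-values reflect no more than how far these samples spread, which may be technical. Both hairpin comparisons share the scramble arrays. The fit was also run on simulated data with independent noise and few changed genes. These data differ from that in both respects, so the run does not cover them.

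The members and the 10 lists (152 genes, 85 measured) were chosen with earlier results of these data known. Named genes were all members and measured ligand genes, up to 4 called genes of each other list by size for the mean of both hairpins, up to 2 between hairpins, the 5 nearest genes of ULBP1 and NCR3LG1 and 3 neighbours a side, and exceptions are marked. Promoters are from RefSeq, matched by symbol for all 6 genes. Alternatives were quantile normalization, centring of arrays, a replicate block, the probe set of largest variance, a robust prior, array weights, protein-coding genes only, the 4 hairpin arrays as 1 group, only the arrays compared and leaving out each array. Tables and figures were made in Python 3.11.15 with pandas 2.3.3 and matplotlib 3.10.9.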

Additional observations from a re-analysis of the deposited data

Results flagged for a closer look

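Differences between the hairpins passed limma's adjusted test in 12 genes over the 10 lists. Of these, 2 were ligand genes (MICB and ICAM1) and the others genes of shedding, class I presentation, the B7 family or the regulators. NCR3LG1, chosen by value, is described beside them and not counted. ULBP1, also chosen by value, differed by -0.43 and was not tested either. NCR3LG1 had both shRNA#2 arrays below and both shRNA#4 arrays above scramble, a difference of -1.47 for shRNA#2 minus shRNA#4 that was not tested. In the limma test of shRNA#2 minus shRNA#4 the 12 genes that passed had adjusted p from 0.00154 to 0.0335. These 12 are 14.5% of the 83 genes counted, against 15.3% of all genes, so the count itself is at the background. Values were higher with shRNA#2 for ADAM9 (1.54), ERAP1 (0.53), ERN1 (0.44), ADAM10 (0.36), HHLA2 (0.35) and CALR (0.24). They were lower with shRNA#2 for ICAM1 (-0.68), DDIT3 (-0.38), TAPBP (-0.29), MICB (-0.26), ADAM15 (-0.24) and EIF2AK3 (-0.22). In each fit without an array, 4 of the 12 calls were kept, those of ICAM1, ERAP1, ADAM9 and ERN1. The calls of CALR and ADAM15 ended without any 1 hairpin array (limma adjusted p up to 0.127 and 0.116), and that of EIF2AK3 without any 1 of the 6 arrays (up to 0.158).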

How the results depend on the processing

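ULBP3, MICA and MICB kept their rise and their call against scramble with each hairpin and with the mean under every alternative run. Quantile normalization moved ULBP1 against scramble to 1.07 (shRNA#2), 1.51 (shRNA#4) and 1.29 (mean), and NCR3LG1 to -0.30 (shRNA#2), 1.39 (shRNA#4) and -1.7 (shRNA#2 minus shRNA#4). It also ended the calls of ULBP2 with shRNA#4 (0.50, limma adjusted p = 0.0504) and of MICB between hairpins (-0.23, limma adjusted p = 0.0503), and made that of ULBP2 between hairpins (-0.54, limma adjusted p = 0.0441). Among the other genes named, it ended calls of PCNA, NECTIN1, E2F1 and CHEK2 for the mean (limma adjusted p = 0.0603, 0.0718, 0.071 and 0.0506). With shRNA#2 it ended those of CADM1, ATF4 and HSF1 (limma adjusted p = 0.0653, 0.0786 and 0.0627). With shRNA#4 it ended those of PGAP1, EIF2AK2 and HDAC2 (limma adjusted p = 0.067, 0.0531 and 0.0641). Between hairpins it ended that of EIF2AK3 (limma adjusted p = 0.0702). With only the arrays compared, ULBP2 was not called with shRNA#4 (0.57) and was called between hairpins (-0.52). With the 4 hairpin arrays as 1 group, 19 list genes were called against 33. Leaving out each array gave 15 to 29 called list genes for shRNA#2 and 4 to 15 between hairpins. For ULBP1 it gave 1.56 to 1.93 with shRNA#4 and -0.62 to -0.25 between hairpins, and for NCR3LG1 -0.30 to -0.17 with shRNA#2 and -1.53 to -1.41 between hairpins. For ULBP2 it gave 0.34 to 0.81 with shRNA#4, 0.08 to 0.55 for the mean and -0.62 to -0.43 between hairpins, and for MICB between hairpins -0.29 to -0.23. A group left with 1 array was assumed to vary like the others. The replicate number, used as a replicate block, raised the called list genes for the mean to 38 and called ULBP2 for the mean (0.31, limma adjusted p = 0.032) and between hairpins (-0.52, limma adjusted p = 0.0158). It also called PVR, CD58, ERAP2 and CD276 for the mean (limma adjusted p from 0.0131 to 0.0397), and ended no call of a list gene. Arrays with the same number deviated together across genes with r of 0.179 (shRNA#2 and scramble), 0.119 (shRNA#4 and scramble) and 0.199 (both hairpins), but nothing in the labels pairs them. The cause of these shifts was not tested. A filter on dim probe sets was not run, because the values hold no level.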
